A study of Mus musculus with 12 samples.

Results

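The unfolded protein response is the transcriptional and translational programme that cells switch on when unfolded proteins accumulate in the endoplasmic reticulum (ER). Its sensors IRE1, PERK and ATF6 sit in the ER membrane. IRE1 splices the mRNA of XBP1, cleaved ATF6 moves to the nucleus, and PERK phosphorylates the initiation factor eIF2α, which lowers translation in general while the ATF4 mRNA is translated more. XBP1 and ATF6 drive genes of ER chaperones and of the degradation of misfolded proteins, and ATF4 drives amino acid and redox genes together with the transcription factor CHOP (gene Ddit3). Hepatocytes secrete large amounts of protein and hold an extensive ER, and ER stress has been studied widely in fatty liver. The 10 genes described here were a given list of ER stress genes, matched by symbol to the Ensembl identifiers of the count table, and all 10 were found among its 24983 genes. They comprise the ER chaperones and folding factors Hspa5, Hsp90b1, Dnajc3, Pdia4 and Sdf2l1, the ER-resident and secreted proteins Manf and Creld2, and Atf4, Ddit3 and Trib3 from the PERK branch. All 10 were among the 14469 genes that passed the filter on low counts.

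The data are RNA-seq read counts from the livers of 12 C57BL/6J mice in 4 groups of 3. The chow group received standard chow. The other groups received for 24 weeks a diet meant to cause nonalcoholic steatohepatitis (NASH), with saturated fat, trans-fat, fructose and cholesterol and 40% of calories from fat, and carried subcutaneous osmotic minipumps. The pumps released polyethylene glycol alone (vehicle), oleic acid in polyethylene glycol (OA), or OA-NO2, the nitrated form of oleic acid, in polyethylene glycol, with 5 mg/kg delivered per day. The labels do not say whether the chow-fed mice carried a pump, so diet and pump cannot be told apart against chow. The sources used here give neither the age and sex of the mice nor the length of the infusion.

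Library depth was lowest in chow replicate 1, with 8462590 counts, followed by 15972613, and highest in vehicle replicate 3, with 20613777. On the first principal component, with 46.4% of the variance, OA replicate 3 lay at -13.5 while the other OA mice lay at 49.6 and 40.0, and values without it are given for the members below. The scaling factors, computed as trimmed means of M values (TMM), were 0.758 to 0.832 in chow and 1.13 to 1.18 in vehicle. Scaling by library size alone moved the median log2 difference of all genes between vehicle and chow from -0.01 to 0.51. Hepatocyte markers were present at high levels in every group, given as CPM (counts scaled to the library total times its TMM factor). The 10 listed, Alb and Apoa1 among them, summed to 146392 to 181103 CPM in chow and 61276 to 77652 in vehicle. The TMM factors widened this gap. As a share of all counts, without these factors, Alb was at 7.91% to 9.50% in chow and 4.06% to 5.31% in vehicle.

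Exact matches to the ER stress response element (ERSE), the site bound by ATF6 and XBP1 together with NF-Y, were sought upstream of the members, because Hspa5 is the textbook target of this element. The letters searched were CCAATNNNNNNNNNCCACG on both strands, in windows of 250 bases before to 50 bases after each RefSeq start (GRCm38.p6). They occurred in 39 of 32851 windows, or 0.119%, and in 4 of the 9 members with an entry in the RefSeq promoter table. Manf had no entry. The matches are printed on the strand of the gene, 5′ to 3′, with the CCAAT and CCACG parts of the element in capitals.
Hspa5: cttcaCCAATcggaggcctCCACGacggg
Hsp90b1 distal: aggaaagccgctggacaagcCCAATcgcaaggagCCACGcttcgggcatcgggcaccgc
Hsp90b1 proximal: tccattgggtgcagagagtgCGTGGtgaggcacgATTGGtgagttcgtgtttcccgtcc
Creld2: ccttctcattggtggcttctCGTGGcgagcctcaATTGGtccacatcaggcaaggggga
Dnajc3: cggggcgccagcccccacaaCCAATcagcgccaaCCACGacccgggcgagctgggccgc
The Hspa5 stretch lies at chr2:34772020-34772048 on the plus strand, 65 bases before the RefSeq start and inside the first exon of a longer GENCODE M21 transcript. The Hsp90b1 stretches lie at chr10:86705618-86705676 and chr10:86705513-86705571 on the minus strand, 212 and 107 bases before the start, the second in reverse orientation. Creld2 holds its match at chr15:88819500-88819558 on the plus strand, 126 bases before the start and in reverse orientation. Dnajc3 holds its match at chr14:118937807-118937865 on the plus strand, 105 bases before the start. No exact ERSE lies in the windows of Sdf2l1, Pdia4, Ddit3, Trib3 and Atf4, and the related ERSE-II (ATTGGNCCACG, in 0.0365% of windows) lies in that of 0 members.

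In chow-fed liver Hspa5, Hsp90b1, Pdia4 and Dnajc3 had the highest levels of the 10 members, and Trib3, Sdf2l1 and Ddit3 the lowest. Levels between genes are compared as CPM per kilobase of exon (RPKM), mean ± SD of n = 3 mice. Hspa5, the ER lumen Hsp70 known as BiP, stood at 134 ± 11.9 RPKM and Hsp90b1, the ER Hsp90 known as GRP94, at 127 ± 20.9. The protein disulfide isomerase Pdia4 stood at 67.7 ± 12.0 RPKM and Dnajc3, a cochaperone of BiP, at 43.6 ± 3.29. Atf4 followed with 28.8 ± 2.15 RPKM, Creld2 with 11.8 ± 3.02 and Manf with 9.81 ± 1.95. The lowest were Trib3 with 3.997 ± 2.91 RPKM, Sdf2l1 with 3.26 ± 0.545 and Ddit3 with 1.99 ± 0.188. Counts of a single library went down to 20 for Sdf2l1 and 22 for Ddit3, against 3259 for Hspa5, so the low genes were measured with larger counting error.

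The diet comparison, vehicle over chow, split the members. Ddit3, Trib3 and Sdf2l1 were higher on the NASH diet and Dnajc3 was lower, while BiP itself (Hspa5) did not pass the test. These 4 of 10 were called by edgeR's quasi-likelihood test at an adjusted p under 0.05. The same rule called 19.3% of all genes tested, and the 4 calls are to be read against that share. Counts of called genes in the lists below are to be read against it too. Of the 14469 genes tested, 4883 had an unadjusted p under 0.05. Vehicle and chow mice did not overlap in 39.4% of them. In whole liver, a change in the number of cells of a type and a change in RNA per cell cannot be told apart, and counts per gene show neither Xbp1 splicing nor eIF2α phosphorylation. Values below are TMM-scaled CPM for replicates 1, 2 and 3, and differences are fitted log2 fold changes ± SE with Benjamini-Hochberg adjusted p over all genes.

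**Figure D1:**
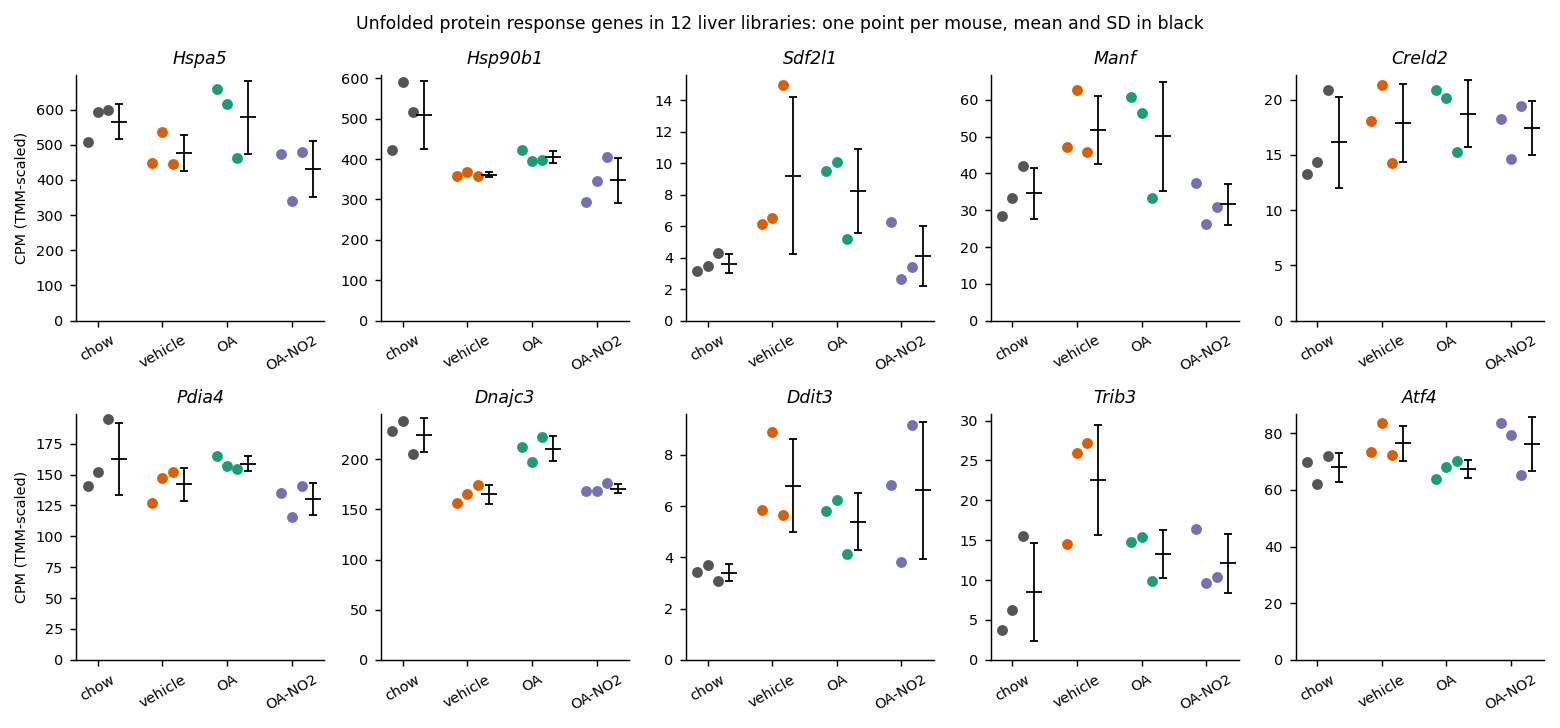
CPM of each of the 10 members in the 12 livers (vertical axis, TMM-scaled CPM on a linear scale from 0; horizontal axis, group), 1 point per mouse with a bar at the group mean. In Ddit3 every vehicle mouse lies above every chow mouse, whereas in Trib3 chow replicate 3 lies among the vehicle mice.

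Hspa5 stood at 508, 592 and 598 CPM in chow and at 449, 537 and 444 CPM in vehicle. The groups overlapped. Its difference was -0.25 ± 0.19 (adjusted p = 0.382), with a 95% interval from -0.66 to 0.16. Hsp90b1 was at 423, 592 and 516 CPM in chow and at 357, 369 and 357 CPM in vehicle. All vehicle mice were below all chow mice, yet the difference of -0.50 ± 0.17 missed the threshold (adjusted p = 0.0518). DESeq2 called it (adjusted p = 0.0164). Both genes carry the ERSE printed above.

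Dnajc3, which restrains PERK as well as assisting BiP, was at 228, 239 and 206 CPM in chow and at 156, 165 and 175 CPM in vehicle. The groups did not overlap. It fell by 0.44 ± 0.13 on the log2 scale, a 1.36-fold lower level (adjusted p = 0.0319). Under library size alone the sign turned to 0.08 (adjusted p = 0.638), below the 0.51 by which that scaling moved the median gene. Pdia4 was at 140, 152 and 195 CPM in chow and at 127, 147 and 152 CPM in vehicle. These overlapped, and the difference was -0.19 ± 0.15 (adjusted p = 0.396). The signs for Hspa5, Hsp90b1 and Pdia4 also turned with library size alone, to 0.27, 0.02 and 0.32.

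Sdf2l1, a cofactor of the ER chaperone machinery, was at 3.12, 3.44 and 4.29 CPM in chow and at 6.14, 6.49 and 14.99 CPM in vehicle. All vehicle mice were above all chow mice, and replicate 3 was the highest by far. Sdf2l1 rose by 1.33 ± 0.41 on the log2 scale, 2.52-fold (adjusted p = 0.0369). Without vehicle replicate 3 the difference was 0.79 (adjusted p = 0.190). That library had 14.3% of its counts on mitochondrial genes, against 6.63% and 7.22% in the other vehicle mice and 10.7% to 14.5% in chow, and lay at 26.0 on the second principal component, against -12.9 and -6.07. The part of this in the members' differences was not tested.

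Manf, a neurotrophic factor kept in the ER by BiP, was at 28.4, 33.4 and 42.0 CPM in chow and at 47.2, 62.6 and 45.8 CPM in vehicle. The groups did not overlap, but the difference of 0.58 ± 0.23 missed the threshold (adjusted p = 0.0938), and without OA replicate 3 in the shared fit it was called (0.57, adjusted p = 0.0460). Its exons share 146 bases with Dcaf1 and 166 with an antisense RNA on the opposite strand, and the use of strand in counting is not stated in the sources used here. Creld2, an ER protein with disulfide isomerase activity, was at 13.2, 14.3 and 20.9 CPM in chow and at 18.1, 21.3 and 14.3 CPM in vehicle. These overlapped, with a difference of 0.14 ± 0.21 (adjusted p = 0.682).

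In the PERK branch, the mRNA of Atf4 was at 70.0, 62.2 and 71.8 CPM in chow and at 73.5, 83.5 and 72.2 CPM in vehicle. The vehicle mice were above the chow mice by a small margin. The difference was 0.17 ± 0.13 (adjusted p = 0.394), with an interval from -0.12 to 0.46. ATF4 is controlled mainly in translation, which mRNA counts do not measure.

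Ddit3, which encodes the proapoptotic factor CHOP, was at 3.43, 3.71 and 3.07 CPM in chow and at 5.87, 8.89 and 5.66 CPM in vehicle. No vehicle mouse overlapped with chow. Ddit3 rose by 0.997 ± 0.31 on the log2 scale, 1.996-fold (adjusted p = 0.0394). Its exons share 68 bases with Mars on the opposite strand. Trib3, a pseudokinase induced by ATF4 and CHOP that binds AKT, was at 3.74, 6.26 and 15.5 CPM in chow and at 14.6, 25.9 and 27.2 CPM in vehicle. Chow replicate 3 lay above the lowest vehicle mouse. Trib3 rose by 1.35 ± 0.40 on the log2 scale, 2.56-fold (adjusted p = 0.0336), and by 1.05 to 2.12 with 1 mouse left out. The highest value was that without chow replicate 3. Trib3 was not called, with adjusted p up to 0.124, when chow replicate 1, chow replicate 2, vehicle replicate 2 or vehicle replicate 3 was left out.

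These calls depended on single mice. With 1 mouse left out at a time, between 0 and 5 members were called, and 0 were called without chow replicate 2 or without vehicle replicate 3. Of the 4 calls, 0 remained without chow replicate 1, where the only call was a gained one (Hsp90b1). With vehicle replicate 2 left out, 1 of the 4 remained. With chow replicate 3 left out 2 remained, and with vehicle replicate 1 left out 3 did. The directions of the 4 called members held in all 12 such fits.

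**Figure D2:**
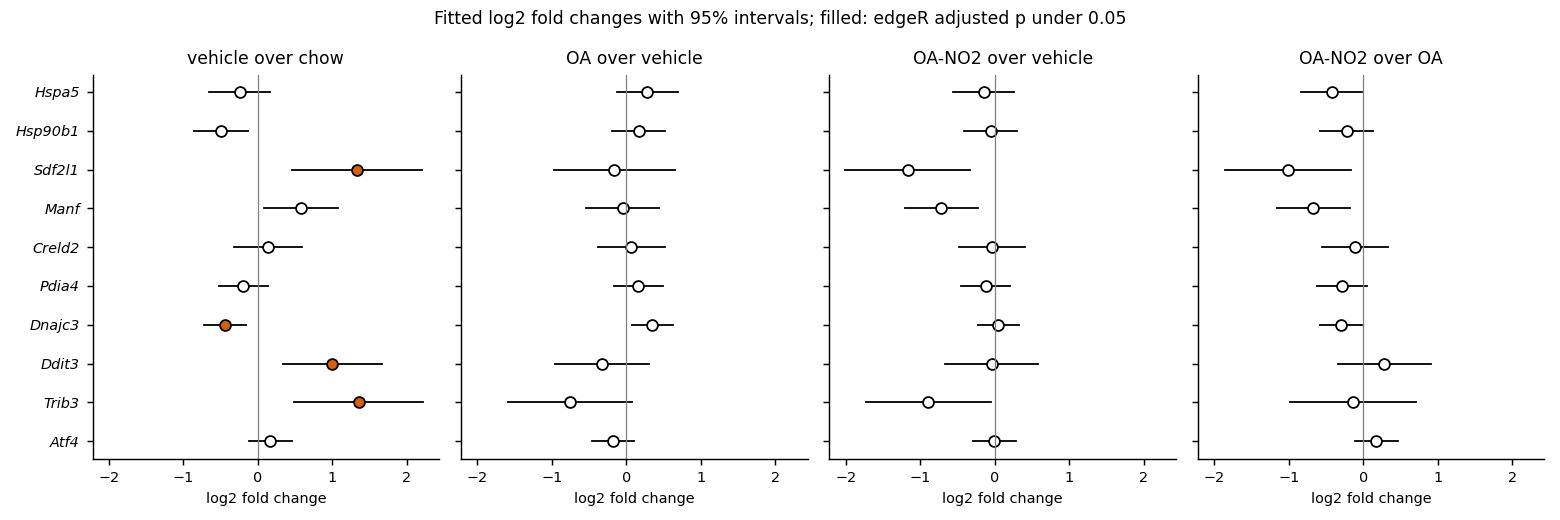
Fitted log2 fold changes of the 10 members (vertical axis), with 95% intervals as bars (horizontal axis, log2 scale). The panels are vehicle over chow, OA over vehicle, OA-NO2 over vehicle and OA-NO2 over OA. Filled points mark adjusted p under 0.05: they occur in vehicle over chow, for Sdf2l1, Dnajc3, Ddit3 and Trib3.

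The sensors of the response gave no call. Of 8 tested genes of the sensors and their activation, 0 were called by edgeR, 3 had an unadjusted p under 0.05, and DESeq2 called 1. Eif2ak3, which encodes PERK, was at 8.496 ± 0.222 CPM in chow and 13.5 ± 0.905 CPM in vehicle (SD, n = 3), without overlap. Its difference was 0.66 ± 0.25 (adjusted p = 0.0854). Creb3l3, an ER-bound transcription factor of hepatocytes, was at 343 ± 25.0 CPM in chow and 243 ± 56.1 in vehicle, a difference of -0.50 ± 0.17 (adjusted p = 0.0578). Ern1, which encodes IRE1α, was at 26.2 ± 1.78 and 21.1 ± 3.64 CPM, a difference of -0.31 ± 0.23 (adjusted p = 0.365). Total Xbp1 was at 182 ± 56.5 and 161 ± 35.1 CPM, and Atf6 at 59.6 ± 11.2 and 66.2 ± 6.55 CPM. Their differences were -0.18 ± 0.22 and 0.15 ± 0.18 (adjusted p = 0.591 and 0.600).

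The ER folding machinery outside the members showed no call either, and the degradation genes moved both ways. Of 20 further ER folding genes 0 were called by edgeR, 3 had an unadjusted p under 0.05, and DESeq2 called 1. Their median difference was -0.21, against -0.01 over all genes tested. The lowest p-values were those of Ero1lb, an ER oxidase, at -0.39 ± 0.13 (adjusted p = 0.0516), and Tor1b at -0.43 ± 0.15 (adjusted p = 0.0628). Of 11 genes of ER-associated degradation 1 rose and 2 fell, with a median of -0.18, where 19.3% of all genes were called. Os9, a lectin that hands misfolded glycoproteins to the ubiquitin ligase complex, fell by 0.68 ± 0.17 (adjusted p = 0.0173), and its adaptor Sel1l fell by 0.39 ± 0.13 (adjusted p = 0.0454). The sign of Sel1l turned with library size alone, to 0.13 (adjusted p = 0.479). Edem2, a mannosidase of the same route, rose by 0.49 ± 0.16 (adjusted p = 0.0434). Degradation genes had 0 calls when chow replicate 1, vehicle replicate 2 or vehicle replicate 3 was left out. They had 1 without chow replicate 2 or 3, vehicle replicate 1, OA replicate 1 or 2 or OA-NO2 replicate 2 or 3, and with no filter on low counts.

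Of 15 genes of protein entry into the ER, 1 rose and 0 fell, with a median of -0.10. This was Sec61b, a subunit of the translocon, at 24.4 ± 3.24 CPM in chow and 43.0 ± 10.9 CPM in vehicle, higher by 0.82 ± 0.21 (adjusted p = 0.0200). Sec61b was not called when chow replicate 1, chow replicate 2 or vehicle replicate 3 was left out. Among 7 genes of eIF2α kinases, phosphatases and initiation factors 0 were called by edgeR, 2 had an unadjusted p under 0.05, and DESeq2 called 1. The lowest p-values belonged to the haem-regulated kinase Eif2ak1 at -0.53 ± 0.18 (adjusted p = 0.0523) and Eif2b1 at -0.35 ± 0.15 (adjusted p = 0.117).

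Among the amino acid and stress genes listed as targets of ATF4 and CHOP, 6 of 24 tested rose and 0 fell. Over all genes, 19.3% were called in this comparison. Of the 24, 20 lay above 0, and the median difference was 1.12, against -0.01 over all genes. Aldh18a1, which makes a proline precursor, was at 0.537 ± 0.333 CPM in chow and 3.27 ± 0.863 CPM in vehicle, higher by 2.43 ± 0.41 (adjusted p = 0.00336). Psat1, of serine synthesis, was at 0.464 ± 0.0497 and 3.86 ± 0.919 CPM, higher by 3.03 ± 0.61 (adjusted p = 0.00636). The stress protein Nupr1 was at 0.826 ± 0.580 and 7.53 ± 4.20 CPM, higher by 3.003 ± 0.68 (adjusted p = 0.0108). These genes kept their calls in every alternative run.

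The hormone Fgf21 was at 4.69 ± 1.57 CPM in chow and 16.0 ± 4.92 CPM in vehicle, higher by 1.81 ± 0.50 (adjusted p = 0.0239). The cystine transporter Slc7a11 held 1 count over the 3 chow mice and 40 over the vehicle mice, 0.0229 against 0.635 CPM (adjusted p = 0.0229), and no fold is given at that count. The sixth was Mthfd2, of mitochondrial folate metabolism, higher by 1.75 ± 0.51 (adjusted p = 0.0301). The list was not uniform: Asns, asparagine synthetase and a standard ATF4 target, was at 4.52 ± 2.63 CPM in chow and 2.098 ± 0.991 in vehicle (adjusted p = 0.214). Both Mthfd2 and Asns were named after their values were seen.

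**Figure D3:**
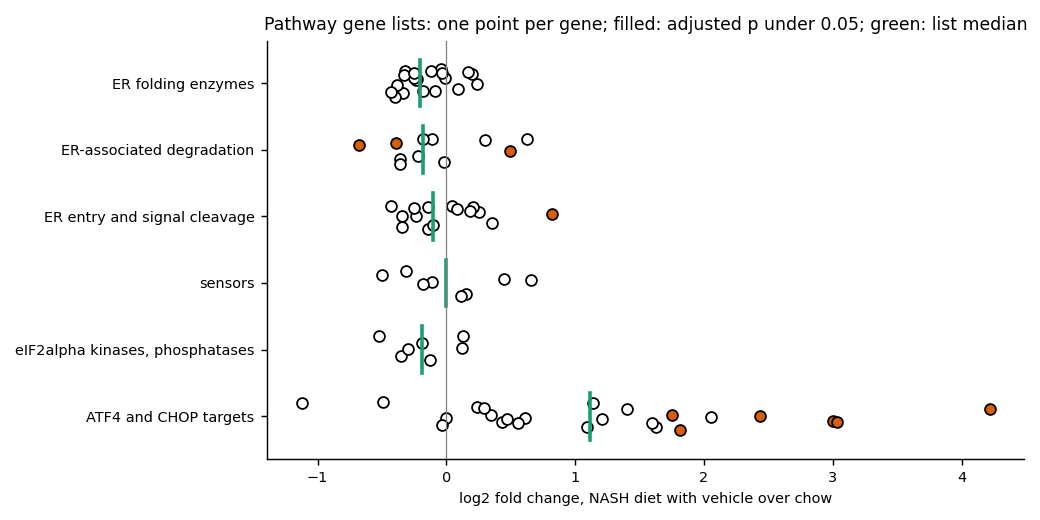
Fitted log2 fold changes, vehicle over chow (horizontal axis), of each gene in 6 lists, with each list's median as a line and called genes filled. The ATF4 and CHOP targets have a median of 1.12, and the medians of the other lists lie between -0.21 and 0.00. The point of Slc7a11 depends on the prior count, since chow held 1 count.

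The element bound by ATF4 with C/EBP proteins (CARE, searched as TGATGNAA on both strands) occurred in 3.97% of all promoter windows. It lay in 7 of the 23 ATF4 and CHOP targets with an entry, Fgf21 and Nupr1 among them, and in 1 of 9 members, Trib3. The sites of these genes are shown because all 3 rose, with the fixed letters in capitals.
Trib3: caggtTTaCATCAgccgg
Fgf21: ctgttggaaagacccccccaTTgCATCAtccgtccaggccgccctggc
Nupr1: ccagaTTgCATCAgacag
Trib3 holds its site in reverse orientation at chr2:152344034-152344051 on the minus strand, starting 14 bases past the start. The Fgf21 stretch lies at chr7:45615602-45615649 and the Nupr1 stretch at chr7:126625568-126625585, both on the minus strand and 139 and 110 bases before the RefSeq start. Asns, Atf3, Chac1 and Pycr1, which were not called, hold the element too, as does Slc7a11, which was called. Of 306 tested genes with a CARE in their window, 24.2% were called in this comparison, and of 10211 without one 19.8% were.

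Sharing the exact ERSE did not go with a higher share of calls. Of the 18 tested genes with one, 2 were higher and 1 lower in vehicle than in chow, or 16.7%, against 19.9% of 10499 tested genes without one. Of the 14 that are not members, 2 rose and 0 fell: the adenylate cyclase Adcy3 by 1.82 ± 0.51 (adjusted p = 0.0269) and Spats2l by 1.45 ± 0.39 (adjusted p = 0.0220). The chaperones calreticulin and calnexin gave differences of 0.09 ± 0.20 for Calr (adjusted p = 0.777) and -0.18 ± 0.15 for Canx (adjusted p = 0.414). The isomerase Pdia6 gave 0.17 ± 0.19 (adjusted p = 0.563) and the ubiquitin ligase Syvn1 gave 0.30 ± 0.24 (adjusted p = 0.395).

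**Figure D4:**
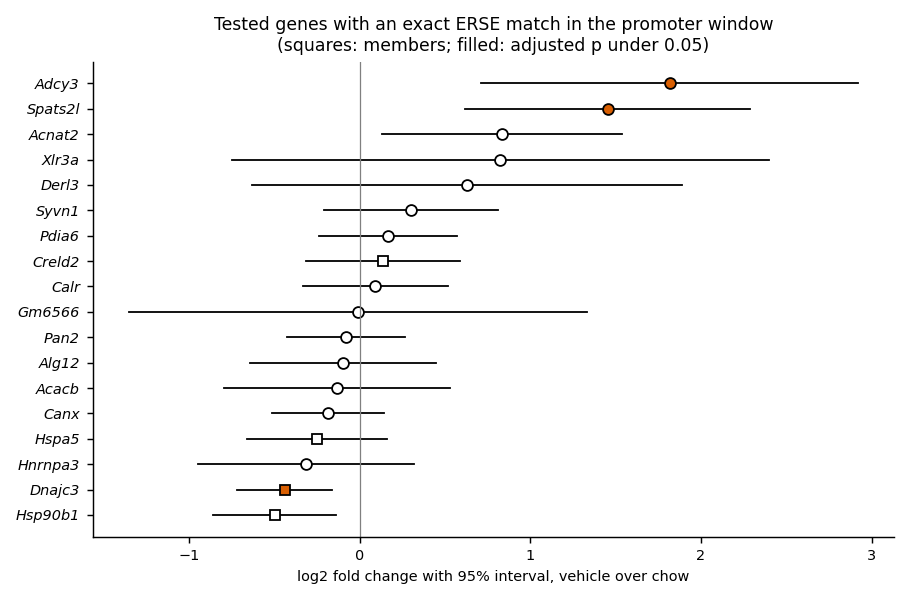
Fitted log2 fold changes, vehicle over chow, with 95% intervals (horizontal axis) of the 18 tested genes with an exact ERSE in their promoter window, members marked apart. Most intervals include 0. Those of Adcy3, Spats2l and Acnat2 lie above it, and those of the members Dnajc3 and Hsp90b1 lie below it.

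Several other measurements moved with the diet groups, and their part in the members' differences was not tested. The calls given here are for vehicle over chow, where 19.3% of all genes were called. Recruited macrophage markers were higher in 8 of 9, and their summed level was 40.1 to 47.7 CPM in chow, 195 to 732 in vehicle, 89.0 to 671 in OA and 69.1 to 202 in OA-NO2. Stellate and fibroblast markers were higher in 7 of 8, with sums of 268 to 329 CPM in chow and 539 to 976 in vehicle. Cholangiocyte markers were higher in 6 of 7, with sums of 26.7 to 43.5 and 72.4 to 491 CPM. Hepatocyte markers were lower in 5 of 10, and 0 of these markers were at 0 in any group. Of 8 tested plasma cell markers, whose cells have a large ER, 7 lay above 0 with a median difference of 1.02, 2 had an unadjusted p under 0.05, and the only call was Sdc1, which was lower. Sdc1 held most of the summed level in chow (253 ± 40.9 CPM). The sum of the other plasma cell markers, formed after the values were seen, was 21.5 to 77.3 CPM in chow, 42.9 to 322 in vehicle, 19.97 to 60.5 in OA and 16.0 to 56.1 in OA-NO2. Of 10 Kupffer cell markers 4 were higher and 3 lower, and of 5 red cell markers 1 was lower. Of 6 endothelial markers 0 were called by edgeR, and 2 had an unadjusted p under 0.05.

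Feeding and cytosolic heat shock genes also differed, while immediate-early genes gave no call. Of 11 tested genes that respond to feeding, 2 rose in vehicle, the insulin-induced Srebf1 among them, and 7 fell, Pck1 and G6pc of gluconeogenesis among them. Acly, of fatty acid synthesis, moved against Srebf1, from 85.4 ± 8.75 CPM in chow to 54.2 ± 17.8 CPM in vehicle. Cytosolic heat shock genes fell in 3 of 9 tested. Immediate-early genes were called in 0 of 8 by edgeR, and 0 had an unadjusted p under 0.05. Their summed level was 60.8, 85.8 and 309 CPM in the chow mice, with the high value in replicate 3, the mouse with the highest chow level of Trib3. In vehicle it was 148 to 216 CPM.

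Against chow, OA-treated mice gave no called member. Both comparisons share the chow mice. Of all 14469 genes tested, 3716 had an unadjusted p under 0.05, and the groups did not overlap in 30.9%. edgeR called 0 of 10 members and 8.56% of all genes, 2 members had an unadjusted p under 0.05, and DESeq2 called 1. Sdf2l1 was at 9.47, 10.1 and 5.17 CPM in OA, all above chow, with a difference of 1.17 ± 0.41 (adjusted p = 0.0899). DESeq2 called this one (adjusted p = 0.0383). Manf was at 60.8, 56.4 and 33.3 CPM, and replicate 3 lay within the chow range. Its difference was 0.53 ± 0.23 (adjusted p = 0.163). Without OA replicate 3, the mouse that stands apart, both Sdf2l1 and Manf were called.

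Ddit3 was at 5.80, 6.25 and 4.15 CPM in OA, all above chow, with a difference of 0.67 ± 0.31 (adjusted p = 0.197). Trib3 was at 14.7, 15.4 and 9.87 CPM and overlapped with chow, with a difference of 0.60 ± 0.40 (adjusted p = 0.378). Without chow replicate 3 it was 1.37 and called (adjusted p = 0.0454). Atf4 was at 63.9, 68.01 and 70.1 CPM, all within the chow range, with a difference of -0.01 ± 0.13 (adjusted p = 0.962).

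Of the chaperones, Hspa5, Dnajc3 and Pdia4 had fitted differences from chow near 0, while Hsp90b1 was lower without a call. Hspa5 was at 659, 615 and 461 CPM in OA, which reached from the vehicle range to above the chow range, and its difference was 0.03 ± 0.19 (adjusted p = 0.935). Hsp90b1 was at 423, 395 and 398 CPM and differed by -0.33 ± 0.17 (adjusted p = 0.231). Dnajc3 was at 212, 197 and 222 CPM and differed by -0.09 ± 0.13 (adjusted p = 0.698). Pdia4 was at 165, 157 and 154 CPM and Creld2 at 20.8, 20.1 and 15.2 CPM. Their differences were -0.03 ± 0.15 and 0.20 ± 0.21 (adjusted p = 0.920 and 0.576).

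In OA over chow edgeR called 8.56% of all genes. Of the 24 ATF4 and CHOP targets, 4 rose and 0 fell, with a median of 0.56. This count was 1 without chow replicate 1 or 2 or OA replicate 1 or 2, and 2 without chow replicate 3 or OA-NO2 replicate 3. Aldh18a1 kept its call in every alternative run, while Psat1 lost it under 5, Sesn2 under 6 and Slc7a11 under 9. Aldh18a1 was higher by 2.17 ± 0.41 (adjusted p = 0.00858) and Psat1 by 2.65 ± 0.61 (adjusted p = 0.0195). Sesn2, a stress-induced regulator of growth signalling, was at 6.08 ± 1.16 CPM in chow and 10.7 ± 0.668 CPM in OA, higher by 0.79 ± 0.22 (adjusted p = 0.0441). Slc7a11 was at 0.580 ± 0.204 CPM (adjusted p = 0.0438). In the other lists 0 were called by edgeR. DESeq2 called 1 degradation gene and 2 sensor genes, and an unadjusted p under 0.05 was reached by 3 sensor, 3 folding, 1 degradation, 1 entry and 0 eIF2α genes. The lowest p-values among the sensors were those of Eif2ak3 at 0.80 ± 0.26 (adjusted p = 0.0679) and Creb3l3 at -0.53 ± 0.17 (adjusted p = 0.0723). Among folding and degradation genes they were those of Cnpy2 at -0.38 ± 0.15 (adjusted p = 0.127), Tor1b at -0.36 ± 0.15 (adjusted p = 0.154), Os9 at -0.53 ± 0.17 (adjusted p = 0.071) and Edem2 at 0.33 ± 0.16 (adjusted p = 0.200). The signal peptidase subunit Spcs1 gave -0.39 ± 0.16 (adjusted p = 0.134) and the translocon partner Sec62 -0.43 ± 0.22 (adjusted p = 0.236). The eIF2α phosphatase subunit Ppp1r15b gave -0.27 ± 0.14 (adjusted p = 0.267) and Eif2ak1 -0.23 ± 0.18 (adjusted p = 0.433).

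Against chow, OA-NO2-treated mice likewise gave no called member. Among all 14469 genes tested, 2725 had an unadjusted p under 0.05, and the groups did not overlap in 21.5%. edgeR called 0 of 10 members and 0.684% of all genes, 3 members had an unadjusted p under 0.05, and DESeq2 called 2. Hsp90b1 was at 293, 345 and 405 CPM, all below chow, with a difference of -0.55 ± 0.17 (adjusted p = 0.120). Dnajc3 was at 168, 169 and 176 CPM, also all below chow, with a difference of -0.39 ± 0.13 (adjusted p = 0.144). These were the members that DESeq2 called (adjusted p = 0.0177 and 0.0150). Hspa5 was at 473, 339 and 481 CPM, again all below chow, with a difference of -0.39 ± 0.19 (adjusted p = 0.283). Pdia4 was at 135, 115 and 140 CPM and differed by -0.32 ± 0.15 (adjusted p = 0.283).

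Sdf2l1 was at 6.27, 2.64 and 3.38 CPM in OA-NO2, spanning the chow range, and differed by 0.16 ± 0.42 (adjusted p = 0.862). Manf was at 37.5, 26.2 and 31.0 CPM and Creld2 at 18.2, 14.6 and 19.4 CPM, overlapping with chow in both cases. Their differences were -0.14 ± 0.23 and 0.10 ± 0.21 (adjusted p = 0.782 and 0.836). Ddit3 was at 6.84, 3.83 and 9.18 CPM, with every mouse above chow. Its difference was 0.96 ± 0.31, which missed the threshold (adjusted p = 0.141). Trib3 was at 16.3, 9.57 and 10.4 CPM and Atf4 at 83.5, 79.4 and 65.3 CPM, both overlapping with chow. These differed by 0.46 ± 0.40 and 0.16 ± 0.13 (adjusted p = 0.563 and 0.532). Of the ATF4 and CHOP targets 0 were called by edgeR, 8 had an unadjusted p under 0.05, DESeq2 called 1 and the median was 0.51. Aldh18a1 had the lowest p, at 1.73 ± 0.42 (adjusted p = 0.0687), followed by Slc7a11 (adjusted p = 0.120).

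In the other lists edgeR called 0 genes in OA-NO2 over chow, DESeq2 called 1 entry gene, and an unadjusted p under 0.05 was reached by 1 sensor, 1 folding, 1 degradation, 4 entry and 0 eIF2α genes. Xbp1 gave -0.60 ± 0.22 (adjusted p = 0.172) and Atf6b, a relative of Atf6, 0.40 ± 0.20 (adjusted p = 0.303). The folding enzymes Ppib and Pdia3 gave -0.35 ± 0.15 (adjusted p = 0.225) and -0.31 ± 0.15 (adjusted p = 0.277). In degradation Os9 gave -0.38 ± 0.17 (adjusted p = 0.254) and Syvn1 0.45 ± 0.24 (adjusted p = 0.322). The signal peptidase subunits Spcs3 and Spcs1 gave -0.49 ± 0.13 (adjusted p = 0.0838) and -0.40 ± 0.16 (adjusted p = 0.198). Eif2s1, which encodes eIF2α, gave -0.32 ± 0.16 (adjusted p = 0.302) and Ppp1r15b -0.23 ± 0.14 (adjusted p = 0.395).

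The infused oleic acid itself, OA over vehicle, gave no call. Of all 14469 genes tested, 564 had an unadjusted p under 0.05, and the groups did not overlap in 13.1%. edgeR called 0 of 10 members and 0% of all genes, 1 member had an unadjusted p under 0.05, and DESeq2 called 0. That member was Dnajc3, where all OA mice lay above all vehicle mice, with a difference of 0.35 ± 0.13 (adjusted p = 0.975) and an interval from 0.07 to 0.63. Hsp90b1 and Pdia4 also did not overlap, with OA above vehicle by 0.17 ± 0.17 and 0.16 ± 0.15 (adjusted p = 0.975 for both). Atf4 did not overlap either, but there every OA mouse lay below every vehicle mouse. Trib3 gave -0.76 ± 0.39, with an interval from -1.59 to 0.08, and Hspa5 gave 0.28 ± 0.19, from -0.13 to 0.69. Sdf2l1 gave -0.16 ± 0.38, Manf -0.05 ± 0.23, Creld2 0.07 ± 0.21, Ddit3 -0.33 ± 0.29 and Atf4 -0.18 ± 0.13. Without OA replicate 3 the signs of Sdf2l1 and Manf turned, to 0.06 and 0.15, and 0 members were called. The 24 ATF4 and CHOP targets had a median of -0.24, and 1 had an unadjusted p under 0.05: Psph, of serine synthesis, at -0.76 ± 0.27 (adjusted p = 0.975). Fgf21 came next at -0.86 ± 0.46 (adjusted p = 0.975).

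In the other lists 0 genes were called by edgeR or DESeq2 in OA over vehicle, 1 folding and 1 degradation gene had an unadjusted p under 0.05, and every adjusted p named here was 0.975. Atf6 gave 0.28 ± 0.18 and Mbtps1, a protease that cleaves ATF6, 0.10 ± 0.13. The ER oxidases Ero1lb and Ero1l gave 0.38 ± 0.13 and 0.23 ± 0.15. In degradation Sel1l gave 0.33 ± 0.13 and the mannosidase Edem3 0.34 ± 0.18. The translocon subunits Sec61b and Sec61a1 gave -0.41 ± 0.21 and 0.33 ± 0.20. The kinase Eif2ak2 gave 0.23 ± 0.13 and Eif2b1 0.25 ± 0.15.

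The nitrated fatty acid against vehicle gave lower values for Sdf2l1, Manf and Trib3 without a call. Among all 14469 genes tested, 2281 had an unadjusted p under 0.05, and the groups did not overlap in 19.7%. edgeR called 0 of 10 members and 0.0207% of all genes, 3 members had an unadjusted p under 0.05, and DESeq2 called 0. In Manf every OA-NO2 mouse lay below every vehicle mouse, and the difference was -0.72 ± 0.23 (adjusted p = 0.180) with an interval from -1.21 to -0.22. Sdf2l1 overlapped in 1 OA-NO2 mouse and differed by -1.17 ± 0.39 (adjusted p = 0.194), from -2.01 to -0.33. Trib3 overlapped too and differed by -0.89 ± 0.39 (adjusted p = 0.289), from -1.73 to -0.05. Hepatocyte markers lay above 0 in 10 of 10 here, with a median of 0.49 and 0 calls. Of 10 Kupffer cell markers 5 lay above 0, and 1 was called higher. Endothelial markers had a median of -0.05. Red cell markers had a median of 0.58, with 5 of 5 above 0 and 0 calls. The other main cell type marker sets had lower medians without a call, and the part of cell types was not tested. Recruited macrophage markers had a median of -1.72, with 9 of 9 at an unadjusted p under 0.05, plasma cell markers -1.81, with 7 of 8, and cholangiocyte markers -1.83, with 5 of 7. Stellate and fibroblast markers had a median of -0.98, with 5 of 8. The summed cholangiocyte level was 49.8 to 96.1 CPM in OA-NO2, against 72.4 to 491 in vehicle.

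The remaining members differed little between OA-NO2 and vehicle in their fitted values. Ddit3 gave -0.04 ± 0.29 (adjusted p = 0.960) and an interval from -0.66 to 0.58. Hspa5 gave -0.15 ± 0.19, Hsp90b1 -0.06 ± 0.17, Pdia4 -0.12 ± 0.15, Dnajc3 0.05 ± 0.13, Creld2 -0.04 ± 0.21 and Atf4 -0.01 ± 0.13. Of the ATF4 and CHOP targets 0 were called by edgeR or DESeq2, 4 had an unadjusted p under 0.05, and the median was -0.47. Psat1 gave -1.50 ± 0.50 (adjusted p = 0.195) and Mthfd2 -1.31 ± 0.47 (adjusted p = 0.211). In the other lists edgeR called 0 genes, DESeq2 called 1 entry gene, and an unadjusted p under 0.05 was reached by 1 sensor, 1 folding, 3 degradation, 3 entry and 1 eIF2α gene. The translocon subunits Sec61b and Sec61g gave -0.78 ± 0.21 (adjusted p = 0.159) and -0.58 ± 0.23 (adjusted p = 0.258). Sel1l gave 0.38 ± 0.13 (adjusted p = 0.190) and Herpud1, of ER-associated degradation, 0.54 ± 0.23 (adjusted p = 0.284). Pdia6 gave -0.50 ± 0.19 (adjusted p = 0.234) and Tor1b 0.28 ± 0.15 (adjusted p = 0.390). Creb3l3 gave 0.41 ± 0.17 (adjusted p = 0.271) and Xbp1 -0.42 ± 0.22 (adjusted p = 0.361). Eif2ak1 gave 0.50 ± 0.18 (adjusted p = 0.211) and Eif2s1 -0.20 ± 0.16 (adjusted p = 0.581).

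OA-NO2 and OA differ by the nitro group and were infused at the same rate, and this comparison likewise gave no called member. Of all 14469 genes tested, 1740 had an unadjusted p under 0.05, and the groups did not overlap in 14.3%. edgeR called 0 of 10 members and 0.00691% of all genes, 4 members had an unadjusted p under 0.05, and DESeq2 called 0. Those were Manf at -0.67 ± 0.23 (adjusted p = 0.347; interval -1.16 to -0.18), Sdf2l1 at -1.01 ± 0.39 (adjusted p = 0.363; -1.85 to -0.16), Dnajc3 at -0.30 ± 0.13 (adjusted p = 0.389; -0.58 to -0.02) and Hspa5 at -0.43 ± 0.19 (adjusted p = 0.406; -0.84 to -0.02). Without OA replicate 3 Manf gave -0.88 (adjusted p = 0.0604), Sdf2l1 -1.24 (adjusted p = 0.137), Hspa5 -0.55 (adjusted p = 0.170) and Dnajc3 -0.25 (adjusted p = 0.392). Dnajc3 and Pdia4 did not overlap between the compounds, with every OA-NO2 mouse below every OA mouse. Pdia4 differed by -0.29 ± 0.15 (adjusted p = 0.470). The other members gave -0.22 ± 0.17 for Hsp90b1, -0.11 ± 0.21 for Creld2, 0.29 ± 0.29 for Ddit3, -0.14 ± 0.39 for Trib3 and 0.18 ± 0.13 for Atf4.

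In the lists edgeR and DESeq2 called 0 genes in OA-NO2 over OA, and an unadjusted p under 0.05 was reached by 2 sensor, 2 folding, 0 degradation, 3 entry, 0 eIF2α and 2 ATF4 and CHOP target genes. Xbp1 was at 171 ± 13.7 CPM in OA and 120 ± 11.9 CPM in OA-NO2, without overlap, a difference of -0.52 ± 0.22 (adjusted p = 0.383). Creb3l3 gave 0.44 ± 0.17 (adjusted p = 0.363). Pdia6 gave -0.50 ± 0.19 (adjusted p = 0.3502) and the cochaperone Dnajb9 -0.34 ± 0.14 (adjusted p = 0.367). Herpud1 gave 0.31 ± 0.23 (adjusted p = 0.595). At the translocon, Ssr3 gave -0.46 ± 0.18 (adjusted p = 0.363) and Spcs3 -0.29 ± 0.12 (adjusted p = 0.385). Eif2s1 gave -0.28 ± 0.16 (adjusted p = 0.492) and Eif2ak2 -0.21 ± 0.13 (adjusted p = 0.528). The serine hydroxymethyltransferase Shmt2 gave 0.45 ± 0.16 (adjusted p = 0.348) and Psat1 -1.11 ± 0.51 (adjusted p = 0.411).

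**Figure D5:**
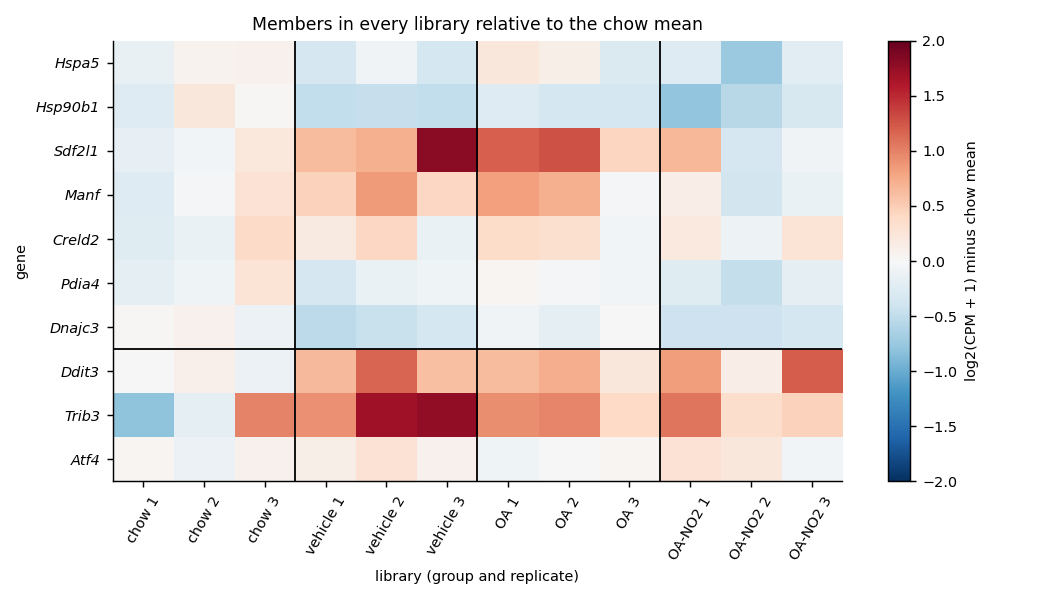
log2(CPM + 1) of each member in each liver minus the mean of that gene over the chow mice (colour, log2 scale), rows ordered by role and columns by group. Sdf2l1, Ddit3 and Trib3 lie above the chow mean in every vehicle and OA column, and Ddit3 and Trib3 also in every OA-NO2 column. Sdf2l1 and Manf are lower in the OA-NO2 columns than in most vehicle and OA columns.

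The order of the group means differed from gene to gene, and neighbours in the order seldom stood apart. Sdf2l1 ran from chow (3.61 ± 0.604 CPM) through OA-NO2 (4.10 ± 1.92) and OA (8.24 ± 2.68) to vehicle (9.21 ± 5.01), and all neighbours overlapped. Manf ran from OA-NO2 (31.6 ± 5.67 CPM) through chow (34.6 ± 6.88) and OA (50.2 ± 14.8) to vehicle (51.9 ± 9.30), also with overlap throughout. For Ddit3 the order was chow (3.40 ± 0.322 CPM), OA (5.40 ± 1.10), OA-NO2 (6.61 ± 2.68) and vehicle (6.80 ± 1.81), and chow and OA were the neighbours without overlap. For Dnajc3 it was vehicle (165 ± 9.34 CPM), OA-NO2 (171 ± 4.38), OA (211 ± 12.5) and chow (224 ± 16.9), with a gap between OA-NO2 and OA. Hspa5 ran from OA-NO2 (431 ± 79.9 CPM) through vehicle (477 ± 52.2) and chow (566 ± 50.4) to OA (578 ± 104), with overlap throughout.

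Averaged per liver on the log2(CPM + 1) scale, the 7 ER members lay between 6.21 and 6.55 in chow, 6.33 and 6.51 in vehicle, 6.33 and 6.71 in OA and 5.96 and 6.28 in OA-NO2. The mean of Atf4, Ddit3 and Trib3 lay between 3.51 and 4.08 in chow, 4.32 and 4.82 in vehicle, 3.99 and 4.33 in OA and 4.001 and 4.50 in OA-NO2. The mean of the ER members therefore overlapped between all groups except OA-NO2 against vehicle and OA. The mean of the PERK-branch members was higher in vehicle than in chow without overlap, although Trib3 alone overlapped. Among single genes, 39.4% of all tested did not overlap between vehicle and chow.

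Across the 12 livers, likeness to Hspa5 and Ddit3 was described by Pearson's r of log2(CPM + 1) among 8970 genes whose mean reached 5 CPM, with no test. Most like Hspa5 were Suco, Pag1, Lemd3, Eps15 and Kdm6a (r from 0.86 to 0.90), and most like Ddit3 were Ccdc86, Fabp4, Nudt4, Adgrv1 and Plekha1 (r from 0.84 to 0.94). With group means subtracted, the genes nearest Hspa5 were Tnfrsf21, Il1rn, Lrrfip1, Cybc1 and Trem2 (0.91 to 0.95), and those nearest Ddit3 were Adgrv1, Ccdc86, Lrrfip1, Fbxo11 and Rnf113a2 (0.85 to 0.90). Hspa5 and Ddit3 had an r of 0.04 over all livers and of 0.85 with group means subtracted. The livers share their groups, scaling and depth, and the 12 points with group means removed hold fewer independent values.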

How the data were processed

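Liver RNA of 12 mice was sequenced, 1 library per mouse. Per the labels' protocols, the KAPA mRNA HyperPrep kit was used and reads were pairs of 76 bases. Per the submitters' processing notes, the tools were HISAT2 2.1.0, HTSeq, SAMtools 1.2 and Trimmomatic 0.35, and the build GRCm38. The sources used here name no annotation release or strand setting. The authors deposited whole-number read counts per gene, not normalised. Groups come from the labels, which give no batch; numbers of replicates were set in accession order and do not pair mice. Replicates differed by a chi-square of at least 24.3 per degree of freedom, so 0 libraries were counted as duplicates.

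Counts were fitted in edgeR 4.0.16 (R 4.3.3): default filter (minimum count 10, minimum total 15), TMM scaling, and 1 quasi-likelihood model over all 12 libraries with a coefficient per group. Genes were called at a Benjamini-Hochberg adjusted p under 0.05 over 14469 genes. SE is the log2 fold change over the root of its F statistic, and 95% intervals use it. RPKM used summed GENCODE M21 exon length. The fit was tested on simulated counts. Alternatives were library size alone, DESeq2 1.42.0 with its size factors, those factors in edgeR, other filters and thresholds, a robust spread estimate, the 2 groups alone, and each mouse left out. Promoter sequences are from RefSeq (GRCm38.p6), with motif stretches shortened to 5 bases each side where GENCODE has an exon.

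The members, gene lists and tests were chosen with earlier results of these data known. Named were all members, sensors, up to 5 called genes per list with the lowest p, and otherwise the lowest p-values. Some genes that this rule names are not reported here. With 3 mice per group, precision is limited mainly by the spread between mice. Of 24983 identifiers, 24914 had a symbol.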

Additional observations from a re-analysis of the deposited data

How the results depend on the processing

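No paired analysis was possible because the numbers of the replicates were set in accession order and link no mice across groups. For members called in vehicle over chow (4), other settings gave 3 to 6, and leaving out 1 mouse gave 0 to 5. In OA over chow (0), library size alone gave 3; DESeq2, no filter, the 2 groups alone and an adjusted p under 0.1 gave 1 each; leaving out 1 mouse gave 0 to 2. In OA-NO2 over chow (0), library size alone gave 1 and DESeq2 gave 2. The comparisons among the 3 NASH diet groups gave 0 in every alternative. Signs of called genes turned for Dnajc3 (0.082) and Sel1l (0.13) in vehicle over chow with library size alone; that scaling by construction moved the median of all genes by 0.51. Ddit3 lost its call without any 1 of the chow mice or without vehicle replicate 2 or 3, Sdf2l1 without any 1 of the chow mice or vehicle replicate 3, Trib3 with the robust estimate and without 4 of the mice, and Dnajc3 under 8 alternatives.

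All-gene counts in vehicle over chow (2786; 1606 higher, 1180 lower) were 5758 (5510 higher, 248 lower) with library size alone and 1200 to 3100 with 1 mouse left out. Against chow, OA (1238) gave 3776 and 347 to 2232, with 776 for the 2 groups alone and 2254 at an adjusted p under 0.1. OA-NO2 (99) gave 1127 and 15 to 284, with DESeq2 653, no filter 262, 2 groups 53 and the looser threshold 461. OA-NO2 over vehicle (3) gave 287 with DESeq2, 151 without a filter, 62 for the 2 groups, 12 at the looser threshold and 1 to 155 with 1 mouse left out, the 155 without OA replicate 3. OA-NO2 over OA (1) gave 50, 10 and 1 to 130, the 130 again without OA replicate 3. In the lists, called ATF4 and CHOP targets in vehicle over chow (6) were 15 with library size alone and 3 to 8 with 1 mouse left out; folding, entry and sensor genes (0, 1 and 0) were 6, 6 and 4, all higher. With 1 mouse left out, degradation genes (3) were 0 to 3, entry genes 0 to 2 and ATF4 and CHOP targets in OA over chow (4) 1 to 6. The causes were not tested. At the lowest depth, chow replicate 1, Sdf2l1, Ddit3 and Trib3 rest on few reads.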
